A study of Mus musculus with 6 samples.

Results

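The miRNAs described here are 6 mature miRNAs of epithelia and of the inner ear epithelium that lie outside the miR-200 family: mmu-miR-205-5p, mmu-miR-203-3p, mmu-miR-31-5p, mmu-miR-31-3p, mmu-miR-135a-5p and mmu-miR-135b-5p. They were chosen by name, and all 6 were found among the 810 miRNAs of the read-count table. The small extracellular vesicles (sEV) came from cochlear explants of ICR mice at postnatal day 3, in which the sensory epithelium was kept on its basement membrane and the spiral ganglion was removed. Explants of the Cis-sEV group received 50 µM cisplatin for 48 h, those of the Ctrl-sEV group an equal volume of PBS, and both were cultured in medium with serum from which sEV had been cleared. Each group has 3 biological replicates, each a pool of the sEV from about 80 explants, so a library averages over many animals and over every cell type that sheds vesicles. The question was whether cisplatin changed these miRNAs in the vesicles. In such pools, fewer vesicles from a cell type and fewer copies in each vesicle cannot be told apart.

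A miRNA is cut from a hairpin with 2 arms, and the arm loaded into Argonaute (the guide) finds its target mRNAs mainly through its seed, bases 2 to 8. miR-205 is an epithelial miRNA that represses the ZEB factors and so helps to keep epithelial cells from becoming mesenchymal. miR-203 is raised when keratinocytes leave the basal layer and represses the stem cell factor p63. miR-31 is known from skin, hair follicles and regenerating epithelia, and miR-135b has been described in vestibular hair cells of the inner ear.

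The mature sequences, as deposited, are shown because the seeds set which members can share targets and because the similarity of the sequences bears on how reads are assigned. Capitals mark the seed.
mmu-miR-205-5p: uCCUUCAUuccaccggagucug
mmu-miR-203-3p: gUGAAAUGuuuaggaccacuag
mmu-miR-31-5p: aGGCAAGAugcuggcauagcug
mmu-miR-31-3p: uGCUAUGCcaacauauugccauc
mmu-miR-135a-5p: uAUGGCUUuuuauuccuauguga
mmu-miR-135b-5p: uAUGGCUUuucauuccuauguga

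Only mmu-miR-135a-5p and mmu-miR-135b-5p shared a seed, AUGGCUU, and no other sequence of the table carried any of the 5 member seeds. Both are 23 nt long and differ by the single substitution U11C, counted from the 5′ end with the base of mmu-miR-135a-5p first, so that 22 bases are identical and reads with an error at that base could be assigned to the other. Their G and C content, 30.4% and 34.8%, was low against a median of 50% over the 809 sequences of the table. Among the members only mmu-miR-205-5p holds GGAG, a motif described for export of miRNAs into exosomes, and none holds CCCU. GGAG occurs in 10.3% and CCCU in 11.2% of all sequences of the table, read on the strand of the miRNA.

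In GRCm38.p6, the hairpin of miR-205 lies on the minus strand of chromosome 1 (193507463 to 193507530), in an exon of the lincRNA 4631405K08Rik. Mir31 lies on the minus strand of chromosome 4 (88910557 to 88910662), in an exon of the lincRNA AL805899.1. Mir203 lies on the plus strand of chromosome 12 (112130880 to 112130955), and GENCODE M21 has no other gene there apart from miRNA genes. mmu-miR-135a-5p has 2 hairpins with the same mature sequence, so its reads cannot be split between them. Mir135a-1 lies on the plus strand of chromosome 9 (106154124 to 106154213), in an intron of D030055H07Rik and opposite an exon of Glyctk, and Mir135a-2 on the minus strand of chromosome 10 (92072086 to 92072185), in an intron of the lincRNA Rmst. Mir135b lies on the plus strand of chromosome 1 (132198088 to 132198184), in an intron of Lemd1 and of AC124108.1. The RefSeq entries used here gave the same mature sequence for 5 of the 6 members and included no mature entry for mmu-miR-135b-5p.

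The libraries held 1722359 to 1794175 miRNA reads for Cis-sEV against 528952 to 718597 for Ctrl-sEV. Levels are miRNA reads put on a common library total (CPM) after correction by edgeR's TMM factors (TMM-scaled CPM). Where a bound is given for a library with 0 reads, it is the level of 3 reads. Means, SDs and sums of TMM-scaled CPM count such a library as 0. That level is 1.42 to 1.59 for Cis-sEV and 4.19 to 7.30 for Ctrl-sEV. The Ctrl-sEV libraries varied more: the biological coefficient of variation was 0.369 within Cis-sEV and 1.55 within Ctrl-sEV. Of the 353 tested miRNAs, 86 (24.4%) had at most 1 read in a Ctrl-sEV library and at least 50 in another, against 1 in Cis-sEV. Ctrl-sEV counts had a gap, with 13, 11 and 20 miRNAs at 9 to 31 reads, against 163, 166 and 159 in Cis-sEV. Ctrl-sEV libraries had 46, 45 and 82 miRNAs at 1 to 8 reads and 199, 210 and 209 at 32 or more. The cause of the gap was not tested. Bounds from 3 reads cover counting error only, so a Ctrl-sEV library with 0 reads may hold a higher level. The hair cell miRNAs mmu-miR-183-5p, mmu-miR-96-5p and mmu-miR-182-5p, checked as markers of the sensory epithelium, summed to 50048 to 73377 TMM-scaled CPM for Cis-sEV against 55946 to 73189 for Ctrl-sEV. Within that sum mmu-miR-96-5p was called higher in Cis-sEV (log2 fold change 2.08, adjusted p = 0.0142 from edgeR), and mmu-miR-183-5p lay lower in every Cis-sEV library (-0.49, adjusted p = 0.0419) without reaching the limit on the fold change. All 3 erythroid markers had reads, and the 2 tested, mmu-miR-451a and mmu-miR-486a-5p, were called lower in Cis-sEV. Their summed level was 977 to 1190 for Cis-sEV against 1647 to 3736 for Ctrl-sEV, and its part in the results below was not tested.

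The members together made up a small part of the vesicle miRNAs, and a larger part in Cis-sEV. They took 0.310%, 0.280% and 0.296% of the miRNA reads in the Cis-sEV libraries, with 95% Wilson intervals that spanned 0.273 to 0.318%. In Ctrl-sEV they took 0.0997%, 0.0905% and 0.200%, with intervals that spanned 0.0838 to 0.212%. The Cis-sEV libraries all lay above the Ctrl-sEV libraries, the third of which stood nearest to them. A larger share in Cis-sEV was not particular to the members. With total miRNA reads as the scale, the median log2 fold change over all 353 tested miRNAs was 0.80. On that scale edgeR called 97 of them higher in Cis-sEV and 11 lower. mmu-miR-31-5p held 42.4 to 56.3% of the member reads for Cis-sEV against 63.2 to 77.5% for Ctrl-sEV. Copies made by PCR were not told apart, so these intervals and all limits cover counting error only.

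A miRNA was called when its adjusted p from edgeR's quasi-likelihood test did not exceed 0.05 and its level differed by 1 or more on the log2 scale. By this rule 1 of the 6 members was higher in Cis-sEV and none lower. Of all 353 tested miRNAs, 23.5% were called higher and 6.52% lower, 30.0% in either direction, so a single call among 6 is near the background. All 6 members passed the filter on low counts. At an unadjusted p under 0.05 in edgeR there were 2 members, mmu-miR-135b-5p and mmu-miR-31-3p, against 41.6% of all tested miRNAs. The median log2 fold change was 0.59 over the members and 0.44 over all tested miRNAs, and the latter value stays the same with the 53 miRNAs at 0 reads in Ctrl-sEV set to their lower bounds. In TMM-scaled CPM every Cis-sEV library lay above every Ctrl-sEV library for 3 members, where this held for 37.7% of all tested miRNAs.

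**Figure D1:**
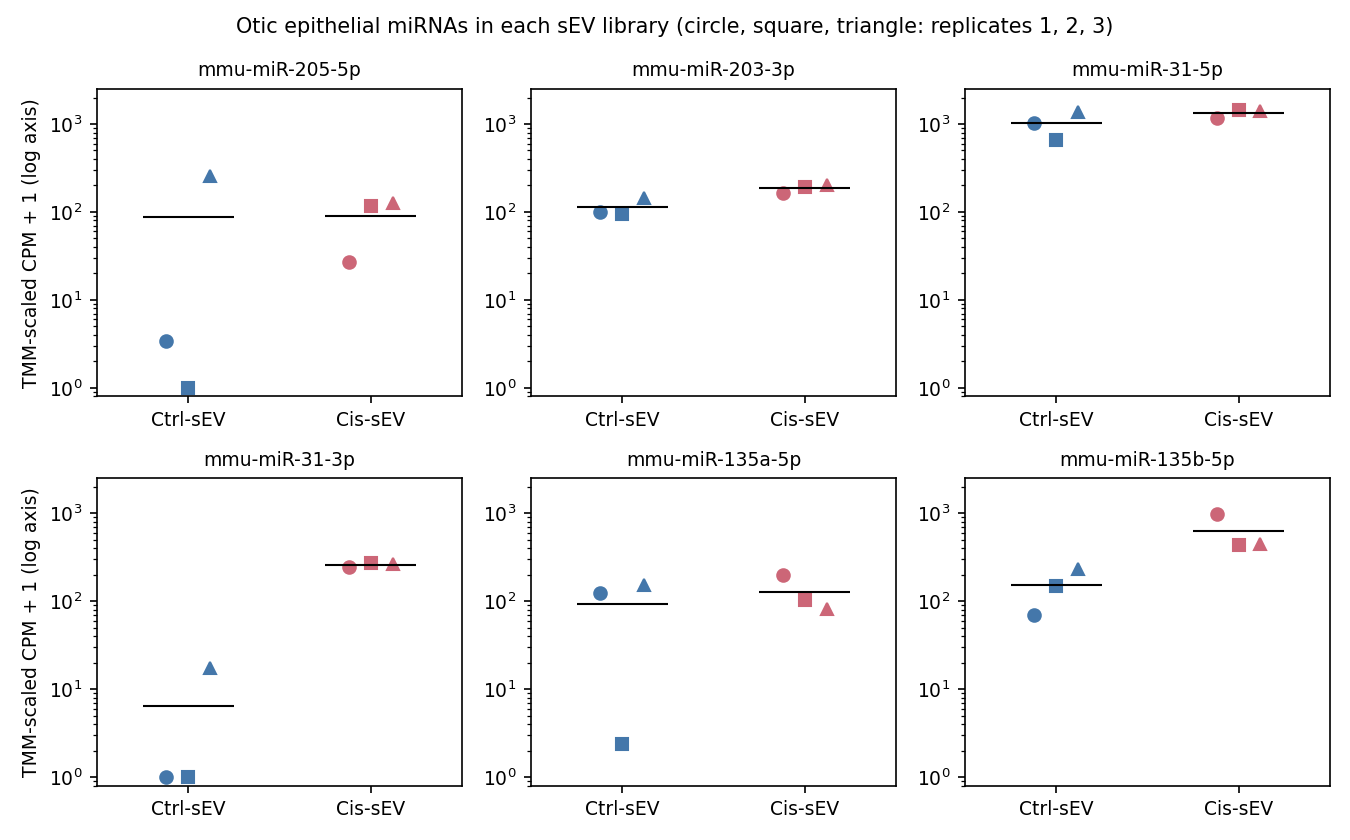
TMM-scaled CPM plus 1 (log axis) of the 6 members in the 3 Ctrl-sEV and 3 Cis-sEV libraries, with the group mean as a line. The Cis-sEV libraries lie above the Ctrl-sEV libraries for mmu-miR-203-3p, mmu-miR-31-3p and mmu-miR-135b-5p, and mmu-miR-205-5p in Ctrl-sEV runs from 0 to 258.

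mmu-miR-135b-5p was the member that was called. Its reads numbered 1947, 821 and 946 in Cis-sEV against 28, 107 and 113 in Ctrl-sEV. Every Cis-sEV library lay above every Ctrl-sEV library, and the first Cis-sEV library was the highest. The level in Cis-sEV was 620 ± 311 TMM-scaled CPM (SD, n = 3), against 150 ± 82.5 (SD, n = 3) for Ctrl-sEV. From edgeR the log2 fold change was 2.04, with a standard error of 0.63 and an adjusted p of 0.0430. With each library left out in turn, the call was kept only without Ctrl-sEV replicate 3 (log2 fold change 2.56, adjusted p = 0.0394 from edgeR). In the 5 fits that lost it, the log2 fold change ran from 1.39 without Cis-sEV replicate 1 to 2.29 without Cis-sEV replicate 3. The adjusted p from edgeR in these 5 ran from 0.07755 to 0.387. The call was also lost with DESeq2 (log2 fold change 1.97, adjusted p = 0.0858) and limma-voom (2.03, adjusted p = 0.305).

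mmu-miR-135a-5p, which shares the seed, did not pass the test. It had 391, 193 and 172 reads in Cis-sEV and 51, 1 and 73 in Ctrl-sEV. In TMM-scaled CPM the groups overlapped, with 196, 102 and 81.2 in Cis-sEV and 124, 1.40 and 151 in Ctrl-sEV, and the second Ctrl-sEV library stood far below the others. In edgeR its log2 fold change was 0.46 (adjusted p = 0.866, standard error 1.43), close to the median of all tested miRNAs, and its sign turned when Cis-sEV replicate 1 (-0.082) or Ctrl-sEV replicate 2 (-0.047) was left out. In the same first Cis-sEV library both miR-135 members were at their highest level.

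The balance between the miR-135 members was tight in Cis-sEV and scattered in Ctrl-sEV. A ratio of reads within a library needs no scaling. mmu-miR-135a-5p had 0.201, 0.235 and 0.182 reads for each read of mmu-miR-135b-5p in the Cis-sEV libraries. In the Ctrl-sEV libraries the ratio was 1.82 (95% Clopper-Pearson interval 1.13 to 3.0), 0.00935 (0.000234 to 0.0532) and 0.646 (0.475 to 0.875). The intervals of the Ctrl-sEV libraries overlap neither each other nor those of Cis-sEV, in libraries where 86.6% was the median coefficient of variation of all tested miRNAs. They cover counting error only, with copies made by PCR not told apart, so their separation is no test between libraries. For Cis-sEV the mean log2 ratio was -2.29 ± 0.19 (SD, n = 3) and for Ctrl-sEV -2.17 ± 4.03 (SD, n = 3), which differ by -0.12 (two-sided exact permutation test, p = 1, and 1 adjusted over the 4 ratios).

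The guide arm of miR-31 was the most abundant member in both groups. mmu-miR-31-5p had 2351, 2720 and 2948 reads in Cis-sEV and 417, 475 and 667 in Ctrl-sEV. These gave 1338 ± 137 TMM-scaled CPM (SD, n = 3) for Cis-sEV against 1018 ± 357 (SD, n = 3) for Ctrl-sEV, and the groups overlapped because the third Ctrl-sEV library, at 1377, lay above the first Cis-sEV library, at 1181. By mean CPM it ranked 68 of 810 miRNAs in Cis-sEV and 67 in Ctrl-sEV. The log2 fold change from edgeR was 0.39 (standard error 0.31, adjusted p = 0.435), and with each library left out it stayed between 0.22 and 0.80, with an adjusted p of 0.0462 to 0.804 and never past the limit on the fold change.

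The other arm of the same hairpin differed far more in its values. mmu-miR-31-3p had 482, 515 and 559 reads in Cis-sEV and 0, 0 and 8 in Ctrl-sEV. The level was 260 ± 15.6 TMM-scaled CPM (SD, n = 3) in Cis-sEV, where it varied least of the members, with a coefficient of variation of 6.02%. All of its Ctrl-sEV reads came from the third library, at 16.5 TMM-scaled CPM. The bounds from 3 reads in the other libraries, 7.30 and 4.19, cover counting error only. The log2 fold change from edgeR was 5.55 (standard error 1.84), and with an adjusted p of 0.0552 it was not called. It passed with total miRNA reads as the scale (adjusted p = 0.0490) and with DESeq2 (adjusted p = 0.00711). Without Ctrl-sEV replicate 3, the group had 0 reads and mmu-miR-31-3p was at least 103-fold higher in Cis-sEV (adjusted p = 0.00777 from edgeR), with 3 reads over the group as the floor. With each library left out the adjusted p was 0.00777 to 0.184.

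**Figure D2:**
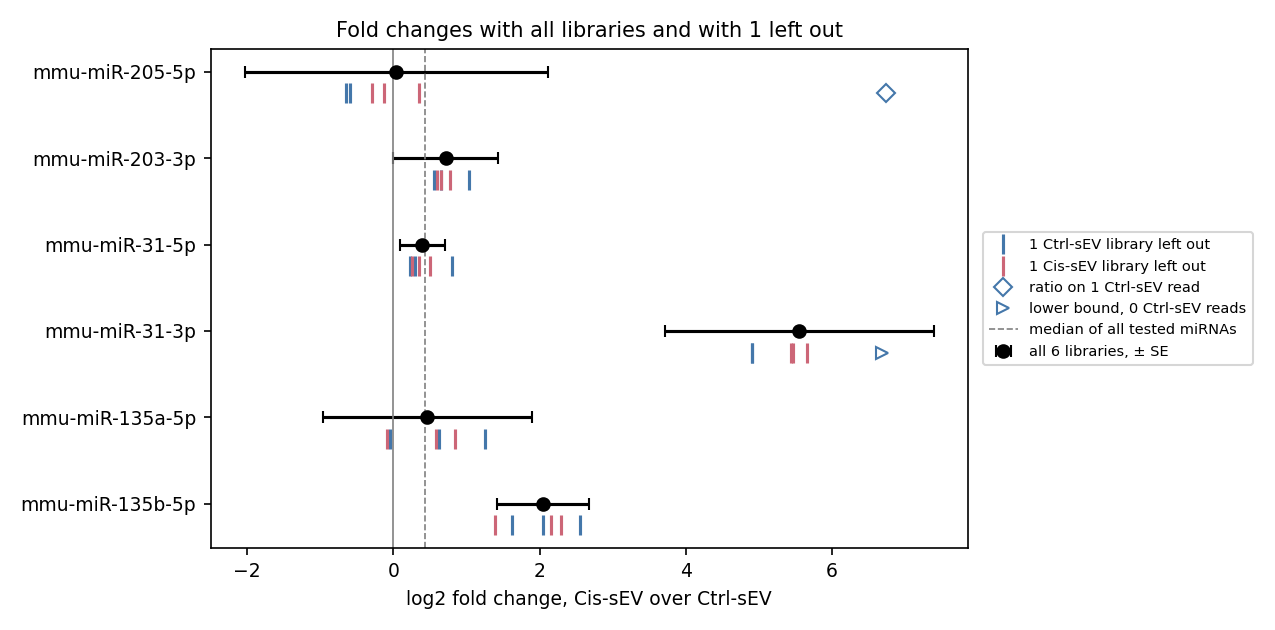
Log2 fold change of Cis-sEV over Ctrl-sEV for each member with all 6 libraries (points, bars of 1 standard error) and with 1 library left out (ticks, a diamond where 1 Ctrl-sEV read is left and a triangle for a lower bound), with the median of all tested miRNAs as a dashed line. The values of mmu-miR-203-3p, mmu-miR-31-5p, mmu-miR-31-3p and mmu-miR-135b-5p all lie above 0, and that of mmu-miR-205-5p rests on Ctrl-sEV replicate 3.

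Within the libraries, mmu-miR-31-5p had 4.88, 5.28 and 5.27 reads for each read of mmu-miR-31-3p in Cis-sEV. In Ctrl-sEV the ratio was 83.4 (95% Clopper-Pearson interval 42.1 to 194) in the third library. In the others, with 0 reads of mmu-miR-31-3p, it was at least 139 and at least 158 by the bound from 3 reads. No Ctrl-sEV value was within 10 times of a Cis-sEV value. With these bounds the mean log2 ratio was 2.36 ± 0.07 (SD, n = 3) for Cis-sEV against 6.94 ± 0.49 (SD, n = 3) for Ctrl-sEV, which differ by -4.57 (two-sided exact permutation test, p = 0.1, and 0.4 adjusted over the 4 ratios tested). With 3 libraries against 3 no smaller p can be reached. The difference kept its sign with each library left out, from -4.85 to -4.39.

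Other hairpins were read in the same way. In 40 hairpins, named by their miRNA, the major arm had at least 100 reads in every library and the minor arm had reads in every Cis-sEV library, and in 20 of them the minor arm had 0 reads in at least 2 Ctrl-sEV libraries. The minor arm was a smaller part of the major arm in Ctrl-sEV in 23 of the 40, by summed reads. In 8 of them it had 0 reads in all 3 Ctrl-sEV libraries. Many of these minor arms had fewer reads than mmu-miR-31-3p. In 11 pairs, miR-31 among them, the minor arm had at least 482 reads in every Cis-sEV library, the lowest count of mmu-miR-31-3p. Of those 11, only 1, miR-31 itself, had the minor arm at 0 reads in at least 2 Ctrl-sEV libraries. The cutoff was taken from mmu-miR-31-3p, so this count does not set miR-31 apart. mmu-miR-31-3p was 19.4% of mmu-miR-31-5p in Cis-sEV and 0.513% in Ctrl-sEV. Under the cutoff, mmu-miR-100-3p had at least 388 reads in each Cis-sEV library, 1228 in all, and 0 in every Ctrl-sEV library. Among the 11, mmu-miR-151-3p had 957, 547 and 675 reads in Cis-sEV and 0, 1 and 34 in Ctrl-sEV. Both were picked after their values were seen.

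**Figure D3:**
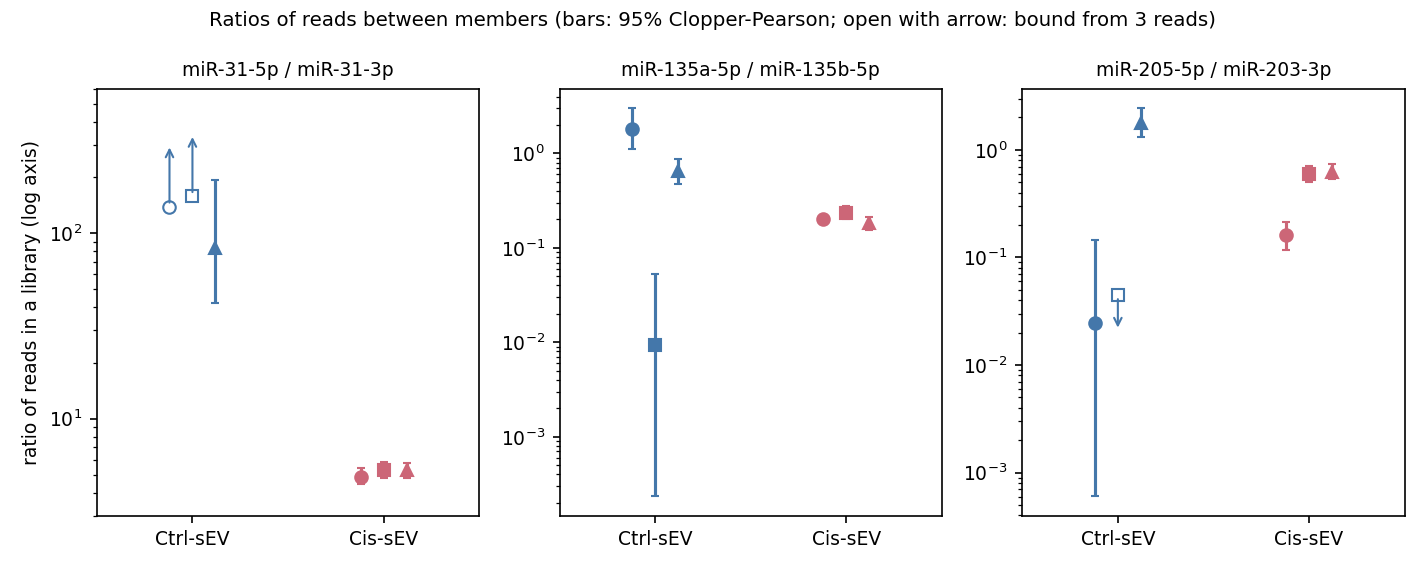
Ratio of reads between members within each library (log axis), with 95% Clopper-Pearson intervals and, for libraries with 0 reads of a member, bounds drawn as open symbols with an arrow. The miR-31 ratio is 4.88 to 5.28 in Cis-sEV and 83.4 or more in Ctrl-sEV, and the miR-135 ratio is 0.182 to 0.235 for Cis-sEV against 0.00935 to 1.82 for Ctrl-sEV.

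mmu-miR-203-3p, the keratinocyte differentiation miRNA, was modestly higher in Cis-sEV without passing the test. It had 324, 364 and 426 reads in Cis-sEV and 41, 67 and 70 in Ctrl-sEV. In TMM-scaled CPM the Cis-sEV libraries had 163, 193 and 201, all above the 99.8, 93.6 and 144 of the Ctrl-sEV libraries. It varied little for this series, with a coefficient of variation of 10.9% in Cis-sEV and 24.7% in Ctrl-sEV, where the medians over all tested miRNAs were 21.8% and 86.6%. By edgeR it differed by a log2 fold change of 0.72 (adjusted p = 0.577, standard error 0.72), 0.28 above the median of all tested miRNAs, and stayed between 0.56 and 1.04 with each library left out.

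mmu-miR-205-5p, the miRNA most tied to epithelial identity among the members, had no stable direction. It had 52, 218 and 268 reads in Cis-sEV and 1, 0 and 125 in Ctrl-sEV. The third Ctrl-sEV library, at 258 TMM-scaled CPM, was above all Cis-sEV libraries, which had 26.1, 115 and 127, while the other Ctrl-sEV libraries were below all of them. The log2 fold change from edgeR was 0.04 (standard error 2.07, adjusted p = 0.987). It was -0.11 with DESeq2 size factors and 0.36 with total miRNA reads. Without Ctrl-sEV replicate 3, the Ctrl-sEV group had 1 read and the ratio was 107 with 19.0 to 4214 as its 95% Clopper-Pearson interval, called by edgeR (adjusted p = 0.0358). The first Cis-sEV library, highest in both miR-135 members, was lowest in mmu-miR-205-5p.

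mmu-miR-205-5p had 0.160, 0.599 and 0.629 reads for each read of mmu-miR-203-3p in Cis-sEV and 0.0244, at most 0.0448 and 1.79 in Ctrl-sEV. The mean log2 ratio differed by 1.65 between the groups (two-sided exact permutation test, p = 0.4, adjusted p = 0.533 over the 4 ratios). Relative to the summed miR-200 family, the log2 ratio of mmu-miR-205-5p was -9.20 ± 1.26 (SD, n = 3) for Cis-sEV against -11.16 ± 3.57 (SD, n = 3) for Ctrl-sEV, which differ by 1.97 (two-sided exact permutation test, p = 0.4, adjusted p = 0.533). With each library left out these differences ran from 0.47 without Ctrl-sEV replicate 1 to 3.57 without Ctrl-sEV replicate 3, and from 0.73 to 4.01 without the same libraries. Both ratios overlapped between the groups, and in both the third Ctrl-sEV library was the highest of all 6.

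Ordered by mean TMM-scaled CPM in Cis-sEV, the members were mmu-miR-31-5p (1338), mmu-miR-135b-5p (620), mmu-miR-31-3p (260), mmu-miR-203-3p (186), mmu-miR-135a-5p (127) and mmu-miR-205-5p (89.3). The lengths are 22 or 23 nt and a read is a whole miRNA, so these levels can be set side by side, apart from differences in capture between sequences. The ranges of mmu-miR-31-5p, mmu-miR-135b-5p and mmu-miR-31-3p did not overlap their neighbours in this order, while those of mmu-miR-203-3p, mmu-miR-135a-5p and mmu-miR-205-5p did. In Ctrl-sEV mmu-miR-31-5p was again first, at least 663 in each library against at most 258 for any other member. The next places in Ctrl-sEV, mmu-miR-135b-5p (150), mmu-miR-203-3p (113), mmu-miR-135a-5p (92.1) and mmu-miR-205-5p (86.8), overlapped in their ranges, and mmu-miR-31-3p (5.50) was last.

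The 7 other arms listed were those of these hairpins and those of miR-203b, which lies opposite miR-203. Of them 6 had a row, and 2 passed the filter on low counts and were tested. These were mmu-miR-203-5p and mmu-miR-203b-5p, and neither was called. mmu-miR-205-3p had no row. mmu-miR-135a-1-3p and mmu-miR-135a-2-3p each had 6 reads in the first Cis-sEV library, mmu-miR-135b-3p had 13 in the second and mmu-miR-203b-3p had 6 in the third, with 0 in all other libraries. mmu-miR-203-5p had 75, 116 and 153 reads in Cis-sEV and 51, 0 and 44 in Ctrl-sEV, and edgeR gave it a log2 fold change of -0.32 (adjusted p = 0.936, standard error 1.73). mmu-miR-203b-5p, from the opposite strand of the same locus, had 131, 119 and 110 reads in Cis-sEV and 0, 66 and 0 in Ctrl-sEV, and edgeR gave it a log2 fold change of 0.96 (adjusted p = 0.810, standard error 2.04). It is 20 nt long and complementary over its whole length to mmu-miR-203-3p, so its reads can be told from that locus only by their strand. The second Ctrl-sEV library, the only one with mmu-miR-203b-5p, was the only one without mmu-miR-203-5p.

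The miR-200 family, the other epithelial miRNAs, was far more abundant, at 41954 to 43924 TMM-scaled CPM for Cis-sEV against 29765 to 34656 for Ctrl-sEV. Of its 5 members 2 were called higher, and the median log2 fold change was 1.21. mmu-miR-200a-3p (1.21) and mmu-miR-200b-3p (1.65) were those called, and mmu-miR-141-3p (2.54), mmu-miR-429-3p (0.34) and mmu-miR-200c-3p (0.28) did not pass. All 5 had a log2 fold change above 0, as had 220 of the 353 tested miRNAs. No difference between these lists was tested. Of the 3 hair cell miRNAs 1 was called higher, with a median log2 fold change of 0.18. Of the 3 neuronal miRNAs 1 was called higher, mmu-miR-124-3p, with 0 reads in all Ctrl-sEV libraries, and the median was 1.64 with it at its fitted value or its lower bound. Their summed level was 1694 to 1985 TMM-scaled CPM for Cis-sEV against 1234 to 1521 for Ctrl-sEV. None of the 5 mesenchymal miRNAs was called, with a median of 0.55 and a sum of 5456 to 8950 against 3029 to 5794. Of the 5 leukocyte miRNAs listed 2 were tested and none called, with a median of 0.51 and a sum of 387 to 614 against 436 to 579.

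**Figure D4:**
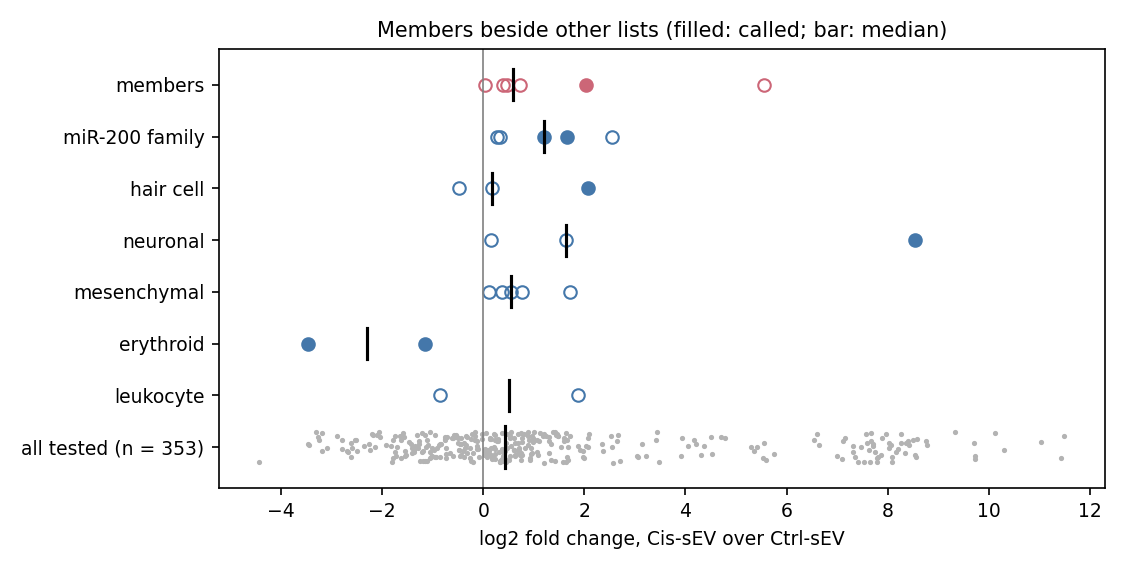
Log2 fold change of Cis-sEV over Ctrl-sEV for the members, for lists of other miRNAs and for all 353 tested miRNAs, with filled circles for called and open circles for other miRNAs of the lists, small grey points for all tested and a bar at each median. The median is 0.59 for the members, 1.21 for the miR-200 family and 0.44 for all tested miRNAs; fitted values of miRNAs with 0 reads in Ctrl-sEV, such as mmu-miR-124-3p, depend on the prior count and are no measured folds.

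Likeness to other miRNAs was measured as the root mean square difference, over the 6 libraries, of log2(TMM-scaled CPM + 1) after each miRNA was centred on its mean, so that 0 is an identical shape. mmu-miR-203-3p was closest to mmu-miR-98-5p (0.12) and mmu-miR-27a-3p (0.15), against a median of 1.87 over the 352 other tested miRNAs. mmu-miR-31-5p was closest to mmu-miR-100-5p (0.17) and mmu-miR-872-3p (0.19), with a median of 1.97. mmu-miR-135b-5p was closest to mmu-miR-26b-5p (0.42) and mmu-miR-30c-5p (0.51). These are miRNAs with reads in every library.

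The members with few Ctrl-sEV reads were closest to miRNAs with the same pattern of present and missing libraries. The measure itself favours this, because a library at or near 0 weighs heavily in it. mmu-miR-205-5p was closest to mmu-miR-877-5p (0.61), with 41, 197 and 265 reads in Cis-sEV and 0, 0 and 94 in Ctrl-sEV, and to mmu-miR-32-5p (0.86). mmu-miR-135a-5p was closest to mmu-miR-30a-5p (0.34), with 129, 4 and 126 reads in Ctrl-sEV, and to mmu-miR-433-3p (0.60). mmu-miR-31-3p was closest to mmu-miR-151-3p (0.73) and mmu-miR-190b-5p (0.85). The Ctrl-sEV library at or near 0 was the second for mmu-miR-135a-5p, and the first and second for mmu-miR-205-5p and mmu-miR-31-3p.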

How the data were processed

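The authors isolated total RNA from the sEV, cut 18 to 30 nt RNA from a gel, sequenced it on the DNBSEQ platform, aligned reads with Bowtie2 to GRCm38.p6 and annotated them with AASRA and cmsearch, keeping 1 annotation for each read. They deposited read counts for each mature miRNA, whole numbers without normalization, for 6 libraries in 2 groups. Their group means were not used. Versions of these tools are not given in the sources used here. Counts were fitted for all miRNAs with edgeR 4.0.16 in R 4.3.3 (quasi-likelihood test, TMM, filterByExpr with 10 reads in a library and 15 over all, Benjamini-Hochberg adjustment over 353 miRNAs). The limits for a call, 0.05 on the adjusted p and 1 on the size of the log2 fold change, are those of the methods. Alternatives used DESeq2 1.42.0 and limma 3.58.1. The scripts were tested on simulated data with the same spread in both groups. That does not cover the wider spread of the Ctrl-sEV libraries. Ratios used exact permutation tests (scipy 1.17.1), with 3 reads in place of 0. Described one by one were the members, the other arms of their hairpins, the arms of miR-203b and miRNAs sharing a seed. So were the 2 closest profiles of each member and the miR-200 family. The members and lists were chosen with earlier results of these data known. Hairpin positions are from RefSeq (GRCm38.p6), overlapping genes from GENCODE M21.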

Additional observations from a re-analysis of the deposited data

How the results depend on the processing

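Over the 353 tested miRNAs, 106 were called, 83 higher in Cis-sEV and 23 lower. The count was 54 with at least 50 reads in 3 libraries required (29 higher and 25 lower), 43 with limma-voom, and 53 to 169 with each library left out. With total miRNA reads as the scale 97 were higher and 11 lower. The median log2 fold change of all tested miRNAs, 0.44 with TMM, became 0.80 with total miRNA reads, 0.37 with DESeq2 size factors, 0.22 with upper-quartile factors and 0.29 without the 10 most abundant miRNAs. Relative to that median, mmu-miR-135b-5p stayed between 1.52 and 1.60, mmu-miR-31-3p between 4.99 and 5.11, mmu-miR-203-3p between 0.25 and 0.28, mmu-miR-135a-5p between 0.02 and 0.07, mmu-miR-31-5p between -0.07 and -0.04 and mmu-miR-205-5p between -0.56 and -0.40 under these scalings and TMMwsp.

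The labels do not say whether same-numbered libraries belong together. Deviations from the group means of same-numbered libraries had correlations of -0.0495, -0.176 and -0.0147 over the tested miRNAs. Those of differently numbered libraries ran from -0.119 to 0.164. With 3 libraries in each group these values cannot settle whether the libraries are paired. With the replicate block 24 miRNAs were called, 13 higher and 11 lower, and none of the members. mmu-miR-135b-5p was then at 2.06 (adjusted p = 0.161 from edgeR), mmu-miR-31-3p at 7.58 and mmu-miR-205-5p at 3.30.

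Of the members, 1 was called with all libraries, 2 with total miRNA reads as the scale, 0 under 14 of 18 alternatives, and 0 to 3 with each library left out. mmu-miR-135b-5p had a log2 fold change above 0 throughout, from 1.39 to 2.56 with each library left out, and lost its call at 1.97 (DESeq2 size factors and DESeq2), 1.93 (TMMwsp), 1.80 (upper quartile), 1.85 (without the 10 most abundant), 1.96 (no filter), 1.82 (at least 50 reads in 3 libraries), 2.03 (limma-voom), 2.04 (limma-voom with group weights) and 1.82 (each library thinned to 528952 reads). The last 2 alternatives were chosen after seeing the data. mmu-miR-31-3p was called at 5.86 with total miRNA reads, 5.46 with DESeq2 and 6.72 with limma-voom with group weights, and ranged from 4.91 to 6.68 with each library left out, the last a lower bound. mmu-miR-205-5p turned negative at -0.11 (DESeq2 size factors), -0.15 (TMMwsp), -0.18 (upper quartile), -0.10 (without the 10 most abundant), -0.16 (at least 50 reads in 3 libraries) and -0.125 (thinned), and ranged from -0.65 to 6.73 with each library left out, the last from 1 Ctrl-sEV read. DESeq2 gave it no adjusted p. mmu-miR-135a-5p ranged from -0.082 to 1.25 and the difference between the groups in its log2 ratio to mmu-miR-135b-5p from -2.41 to 1.40 with each library left out. mmu-miR-203-3p and mmu-miR-31-5p kept their direction and their side of the threshold under every alternative run. The other 3 ratios kept their direction. Whether they pass the limit on p cannot be judged from these alternatives. The smallest p of their exact permutation test is 0.1 with all libraries, and it was 0.2 with a library left out. The causes of the changes between alternatives were not tested. In Ctrl-sEV, 3 reads stood for 4.19 to 7.30 TMM-scaled CPM, so a library with 0 reads of mmu-miR-31-3p or mmu-miR-205-5p does not exclude levels below that. Levels above that are not excluded either, since the bound covers counting error only.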
